A study of Arabidopsis thaliana with 2 samples.

Results

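The tau and phi glutathione transferases are the largest plant-specific classes of the enzymes that join the tripeptide glutathione to reactive or foreign molecules. The genes were chosen by locus identifier, as tau members GSTU1 to GSTU28 (28 genes) and phi members GSTF2, GSTF3 and GSTF6 to GSTF14 (11 genes). Of these 39 genes, 27 were listed in the deposited expression table of 11666 genes, 19 of the tau and 8 of the phi class. The other 12 were not analysed here: GSTU5, GSTU13, GSTU15, GSTU18, GSTU21, GSTU22, GSTU25, GSTU26, GSTU28, GSTF11, GSTF13 and GSTF14. The family was picked with its values in these libraries known, so the differences below are descriptions and carry no test.

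In plant cells a glutathione conjugate is usually moved into the vacuole by ABC-type transporters and then broken down, which makes the transferases the middle step of detoxification. Many tau and phi genes are known to respond to herbicide safeners, pathogens, salicylate, oxylipins of the jasmonate pathway and oxidative stress, partly through TGA-class transcription factors. Some members also serve metabolism of the plant's own compounds, as in the synthesis of camalexin and glucosinolates and in the transport of anthocyanins.

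Seedlings of Arabidopsis thaliana, wild-type and ago1-36, were grown for 12 days on MS plates with 3% sucrose at 23°C in long days, with 16 h of light. ago1-36 is a mutant of ARGONAUTE1 (AGO1), the protein that microRNAs guide to their targets, and the study asked which transcripts differ in this mutant. Each genotype was represented by 1 RNA-seq library of total seedling RNA, of about 13670000 reads for wild-type and 13590000 reads for ago1-36. No difference has a replicate check, and "higher" and "lower" always compare these 2 libraries. AGO1 itself stood at 48.6 RPKM (reads per kilobase of gene, scaled to library size) in the wild-type library against 5.59 RPKM in that of ago1-36, in the direction the labels give. In bulk seedling RNA, fewer cells of a type and less RNA per cell cannot be told apart. All 5 leaf mesophyll markers were detected and lower in ago1-36 (summed level 19710 RPKM in wild-type against 8365 RPKM in ago1-36). All 4 listed root markers were also lower (988.3 and 835 RPKM), a sum made up mostly of PYK10 (960 and 829 RPKM). They did not differ alike, since PRP3 was 8.69-fold and LRX1 11.3-fold lower, while RHD2 had 4.1 and 3.52 RPKM. The 4 seed markers were all higher (0.4475 and 59 RPKM), with SESA1 at 0 in wild-type. For comparison, 48.5% of all kept genes, those that passed a filter of 1 RPKM in either library, were higher in ago1-36. All 4 seed markers passed this filter through ago1-36 alone, and root marker LRX1 through wild-type alone. Their direction was thus partly set by the filter. The 3 floral organ markers were not analysed here, and the part of tissue composition in the values below was not tested.

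Transferase transcripts were mostly more abundant in the ago1-36 library, with a higher value for 22 of the 27 listed members (48.5% of all kept genes) and a lower value for 5. On the scale of log2 of RPKM plus 1, 9 of 19 tau members (47.4%) and 5 of 8 phi members (62.5%) were at least 2-fold higher in ago1-36, against 19.6% of the 11373 genes that reached 1 RPKM in at least 1 library. At least 2-fold lower were 1 tau member, GSTU14, and 1 phi member, GSTF12, against 8.38% of all kept genes. Differences of 4-fold or more were found for 4 tau members and 3 phi members, all of them higher (6.14% of all kept genes). The median log2 ratio was 0.86 in the tau class and 1.18 in the phi class, against -0.04 over all kept genes. The authors' deposited table sets its log2 fold changes lower, with a median of -0.23 over all kept genes, and of those past 2-fold 55.7% were higher, against 70.0% here. Genes of near-equal level in both libraries are scarce in the deposited table, so shares describe listed genes. All 27 listed members passed the filter, but GSTU3, GSTU11, GSTU12 and GSTF3 did so through ago1-36 alone and GSTU14 through wild-type alone, so that their direction was partly set by the filter. Among members at 1 RPKM or more in both libraries, 6 of 15 tau and 4 of 7 phi members were at least 2-fold higher (16.2% of all such genes), and 1 phi member, GSTF12, was at least 2-fold lower (7.4%). Most of the phi members counted as higher are close copies, namely GSTF2, GSTF3, GSTF6 and GSTF7, whose proteins share 90% or more identity with another member. Without them 1 of 4 phi members was at least 2-fold higher and the median was 0.12. Leaving them out removes both copies of each pair, all of them higher, so this drop does not show whether reads were shared.

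**Figure D1:**
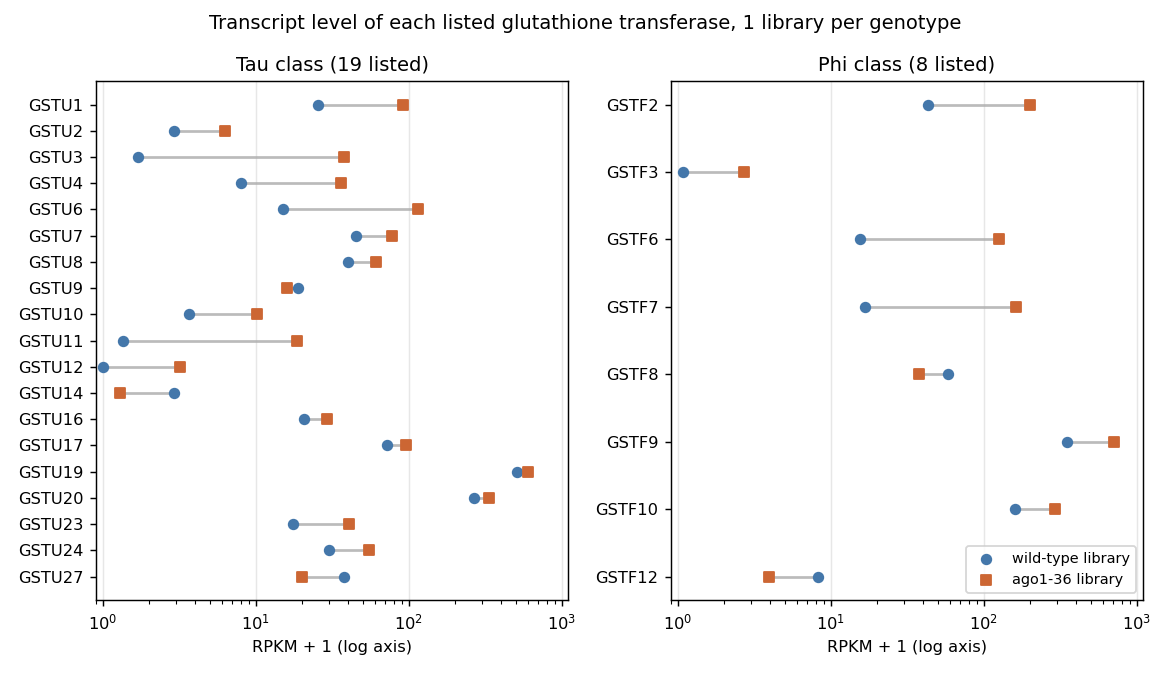
Transcript level of each listed tau (left) and phi (right) member as RPKM plus 1 on a log axis, with a circle for the wild-type library and a square for the ago1-36 library (1 library each, no error between replicates). The square lies to the right of the circle for 22 of 27 members, and GSTU19 and GSTF9 have the highest levels of their classes in both libraries.

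The most abundant tau transcripts, GSTU19 and GSTU20, differed little by ratio, though GSTU19 added 96.5 RPKM, close to the 98.9 RPKM of GSTU6. GSTU19, a transferase known for its response to safeners, had 508 and 604 RPKM, where the wild-type value comes first here and throughout, a ratio of 1.19 (95% counting interval 1.15 to 1.23). GSTU20, known to bind the jasmonate-conjugating enzyme JAR1, had 266 and 332 RPKM (1.25-fold, 1.19 to 1.31). Both genes lie side by side on chromosome 1 and together made up 70.3% of the summed tau RPKM in wild-type and 57.4% in ago1-36. GSTU17, which takes part in light and abscisic acid responses, had rank 3 in wild-type at 70.9 RPKM and stood at 95.2 RPKM in ago1-36 (1.34-fold, 1.23 to 1.46). The intervals, here and below, are exact Clopper-Pearson intervals on reads recovered from the table and cover counting error only, and reads amplified by PCR, with no molecular identifiers, are not independent. Read numbers above about 100 are estimates. In the authors' deposited table the log2 fold changes, which are shifted downwards against the RPKM ratio, were 0.07 for GSTU19 and 0.13 for GSTU20.

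By plain RPKM ratio, the largest tau differences came from transcripts that were rare in wild-type. GSTU3 (AT2G29470) went from 8 reads (0.683 RPKM) in wild-type to 36.6 RPKM in ago1-36, a 53.6-fold difference (95% counting interval 26.9 to 125). GSTU11 (AT1G69930) had 5 reads in wild-type (0.349 RPKM) and 250 reads in ago1-36 (17.5 RPKM), 50.3-fold higher (21.3 to 156). Its neighbour GSTU12 (AT1G69920) had 0 reads in wild-type and 28 reads in ago1-36, at 2.21 RPKM. With a floor of 3 reads put in place of these 0 reads the ratio would be 9.39, and the lower 95% counting limit was 7.14. On the scale of RPKM plus 1 the log2 ratio of GSTU12 was 1.68, below the 2.92 of GSTU6. GSTU3, GSTU11 and GSTU12 were thus nearly absent from the wild-type library, and their exact ratios rest on few reads.

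A further 6 tau members were at least 2-fold higher in ago1-36. GSTU6 (AT2G29440) had 14.1 and 113 RPKM, 8.02-fold higher in ago1-36 (95% counting interval 6.80 to 9.54), and moved from rank 12 to rank 3 among the listed tau transcripts. GSTU4 was 5.02-fold higher (7.02 and 35.2 RPKM, interval 3.98 to 6.39). GSTU1 was 3.70-fold higher (24.4 and 90.1 RPKM, interval 3.28 to 4.19). All 3 of these genes lie in 1 tandem array on chromosome 2. Lower in abundance were GSTU10, with 37 and 127 reads (3.45-fold, 2.38 to 5.12), and GSTU2, with 25 and 68 reads (2.74-fold, 1.71 to 4.52). GSTU23 had 16.5 and 39.3 RPKM (2.38-fold, 2.0 to 2.85). Together the 17 listed tau members other than GSTU19 and GSTU20 summed to 326 RPKM in wild-type against 696 RPKM in ago1-36, a ratio of 2.13, whereas GSTU19 and GSTU20 summed to 774 and 937 RPKM, a ratio of 1.21.

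Besides GSTU17, GSTU19 and GSTU20, a further 6 tau members stayed under 2-fold and 1, GSTU14, was lower by more. GSTU24, which is known for conjugating the explosive trinitrotoluene, had 29.2 and 53.8 RPKM (1.84-fold, 95% counting interval 1.61 to 2.11). GSTU7 had 43.8 and 76.2 RPKM (1.74-fold, 1.56 to 1.94), GSTU8 38.8 and 59.7 RPKM, and GSTU16 19.7 and 28.3 RPKM. The mutant library held the higher value for each of them. GSTU9 had 17.9 and 14.9 RPKM, slightly less in ago1-36, and was the only listed member whose counting interval (ratio 0.833, 0.677 to 1.02) included 1. GSTU27 (AT3G43800) ran the other way at 36.8 and 18.9 RPKM, 1.95-fold lower in ago1-36 (1.66 to 2.29). The lowest tau ratio belonged to GSTU14, with 19 reads in wild-type and 3 reads in ago1-36 (6.30-fold lower, 1.85 to 33.2). The GFOLD score of the authors' deposited table was -0.69 for GSTU14 and -0.87 for GSTU27, and the log2 fold changes there were -2.50 and -1.14. On both deposited measures, as by RPKM, they were lower in ago1-36.

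**Figure D2:**
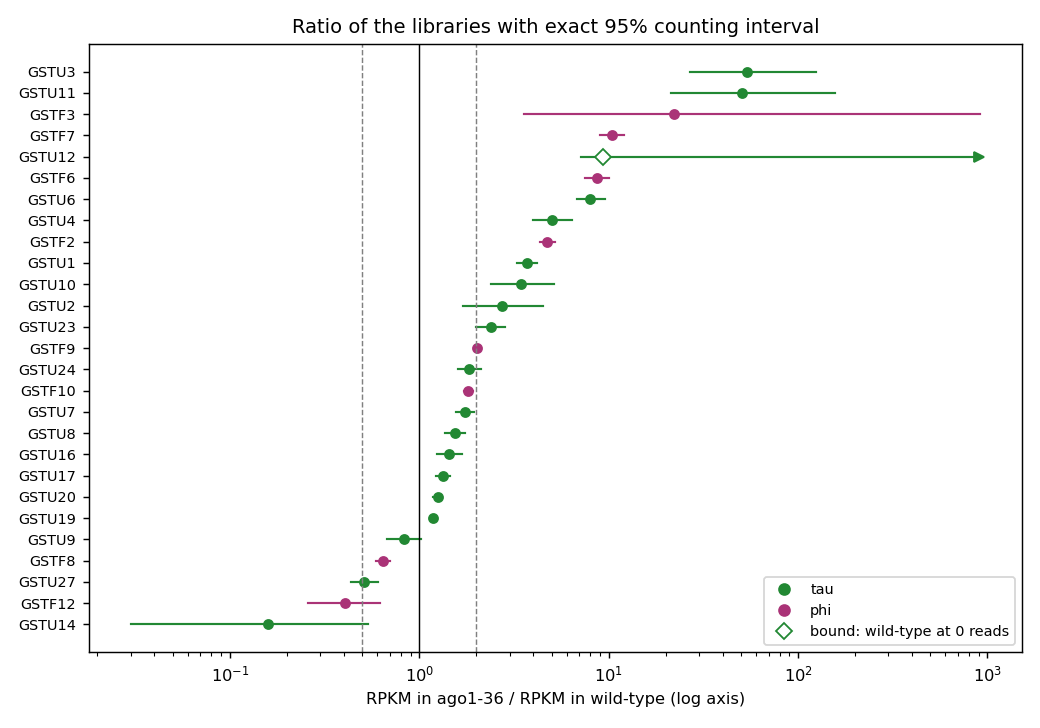
Ratio of RPKM in ago1-36 to RPKM in wild-type for each listed member on a log axis, with exact 95% counting intervals as bars; the open diamond is the bound for GSTU12, which had 0 reads in wild-type, and dashed lines mark 2-fold. Ratios run from 6.30-fold lower for GSTU14 to 53.6-fold higher for GSTU3, and the intervals of 22 members lie above 1 and those of 4 members below 1 (counting error only).

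Among phi members, a pair and its relative stood out. GSTF6 (AT1G02930), which is known to conjugate glutathione with indole-3-acetonitrile on the way to the defence compound camalexin, had 14.4 and 125 RPKM, 8.66-fold higher in ago1-36 (95% counting interval 7.53 to 10.1). Its tandem neighbour GSTF7 (AT1G02920) had 15.7 and 162 RPKM, 10.4-fold higher (8.97 to 12.1). Their proteins share 93.8% of residues and their coding sequences 94.7% of bases, so reads may be counted for the wrong copy and the separate values are uncertain. GSTF2 (AT4G02520), known to bind camalexin and flavonoids, had 41.9 and 199 RPKM (4.75-fold, 4.33 to 5.2). GSTF2 lies opposite TOC159, a listed gene that shares 1442 bases with it and had 134 and 127 RPKM. Use of strand is not given in the sources used here, so reads of GSTF2 and TOC159 cannot be told apart. GSTF3, the close copy of GSTF2 with 92.5% protein identity, had 1 read in wild-type and 22 reads in ago1-36 (22.1-fold, 3.58 to 913). The summed level of GSTF2, GSTF6 and GSTF7 was 71.9 RPKM in wild-type, 11.1% of the phi sum, and 486 RPKM in ago1-36, 31.8% of it, a ratio of 6.76.

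The abundant phi pair GSTF9 and GSTF10 differed about as much as each other. GSTF9, which is linked to glucosinolate synthesis, had 349 and 706 RPKM and lay just past the 2-fold mark (2.02-fold, 95% counting interval 1.95 to 2.09; log2 ratio 1.01). The authors' deposited table gives GSTF9 a log2 fold change of 0.83, short of that mark. GSTF10, a dehydration-responsive transferase, had 160 and 292 RPKM (1.82-fold, 1.73 to 1.92). GSTF9 added more RPKM than any other listed member, with a difference of 357 RPKM between the libraries.

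Lower phi values came from GSTF8 and GSTF12. GSTF8 (AT2G47730), a transferase found in the chloroplast as well as the cytosol and a common marker of early stress responses, had 57.1 and 36.7 RPKM, 1.56-fold lower in ago1-36 (95% counting interval 1.43 to 1.70). It had rank 3 among the phi members in wild-type and rank 6 in ago1-36. GSTF12 (AT5G17220), the TRANSPARENT TESTA 19 carrier that brings anthocyanins to the vacuole, had 77 reads in wild-type and 31 reads in ago1-36, at 7.25 and 2.93 RPKM (2.47-fold lower, 1.61 to 3.88). It overlaps the listed carotenoid gene PSY on the opposite strand over 108 bases, with 186 and 158 RPKM for PSY.

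**Figure D3:**
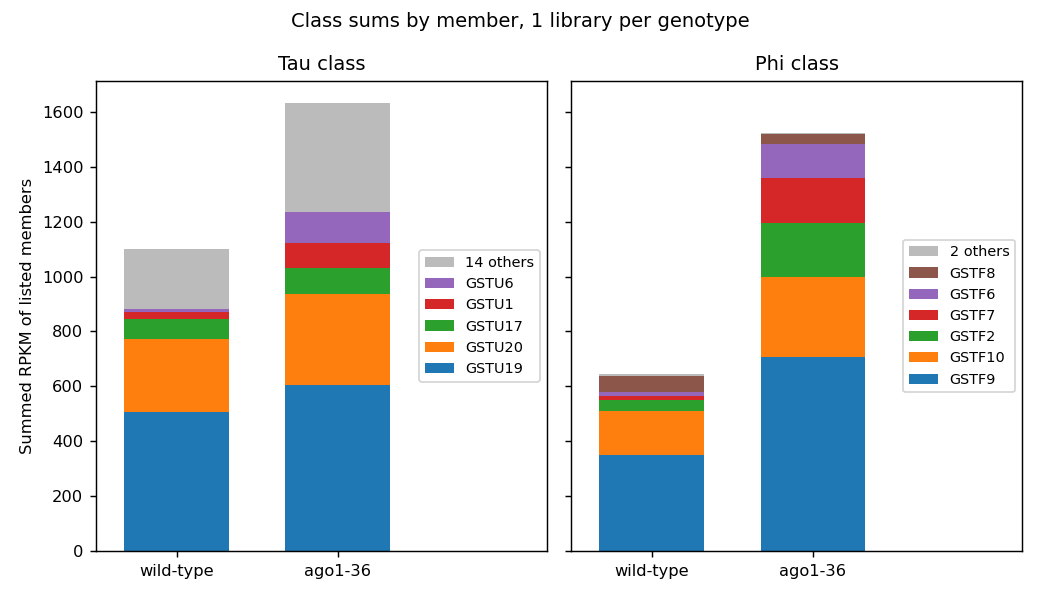
Summed RPKM of the listed tau (left) and phi (right) members in each library, as stacked bars that start at 0 and are split by the most abundant members (1 library per genotype). The tau sum was 1100 RPKM in wild-type against 1632 RPKM in ago1-36, and the phi sum 646 and 1525 RPKM.

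Per class, the summed level was 1.48-fold higher in ago1-36 for tau and 2.36-fold higher for phi, as the plot of class sums shows. Phi transcripts thus came to 1525 RPKM, close to the tau sum of 1632 RPKM, where the wild-type sums were 646 and 1100 RPKM. In the tau class GSTU6 and GSTU1 grew from 1.28% and 2.21% of the sum to 6.92% and 5.52%. In the phi class GSTF9 remained first with 54.1% and 46.3%. These shares depend on which members were listed.

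The choice of members did not use genome position. In the TAIR10.1 annotation, 27 of the 39 genes lie in 9 tandem arrays, defined as neighbours at most 15 kb apart on 1 chromosome, and 19 of these 27 were listed. Within arrays 11 of 19 listed members were at least 2-fold higher, against 3 of 8 outside arrays, and the medians were 1.1 and 0.18, beside 19.6% and -0.04 over all kept genes. GSTU3, GSTU11 and GSTU12 in arrays and GSTF3 outside them passed the filter through ago1-36 alone, and GSTU14 in an array through wild-type alone. At 1 RPKM or more in both libraries the counts were 8 of 15 in arrays and 2 of 7 outside, beside 16.2% of all such genes. The medians were 1.01 and -0.25, beside -0.08 over all such genes, so that the median outside arrays changed sign. The array on chromosome 2 (positions 12617936 to 12632538) holds GSTU1 to GSTU7. All 6 of its listed genes were higher in ago1-36, 5 by at least 2-fold, but their log2 ratios ran from 0.79 for GSTU7 to 4.48 for GSTU3. On chromosome 1, positions 29467412 to 29488007 hold GSTU19 to GSTU23, where the listed genes had log2 ratios of 0.25 (GSTU19), 0.32 (GSTU20) and 1.2 (GSTU23). GSTU11 and GSTU12 form a pair at 26334250 to 26338818 of chromosome 1, both at least 2-fold higher. GSTF6 and GSTF7 lie at 658578 to 662475 of chromosome 1 and GSTF9 and GSTF10 at 13138882 to 13142676 of chromosome 2, and the members of each pair differed by 0.26 and 0.15 on the log2 scale.

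**Figure D4:**
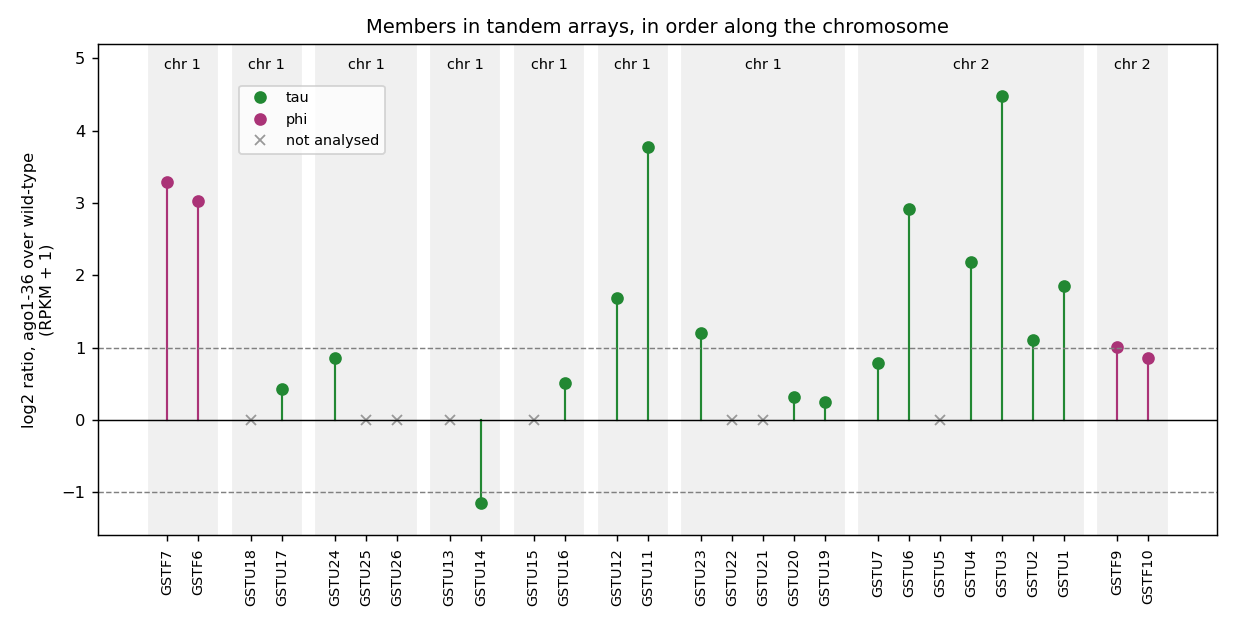
Log2 ratio of ago1-36 over wild-type (RPKM plus 1) for members in tandem arrays, in order along the chromosome, with 1 grey band per array, crosses for members not analysed and dashed lines at 2-fold (1 library per genotype). All 6 listed genes of the GSTU1 to GSTU7 array lie above 0, from 0.79 to 4.48, while GSTU19 and GSTU20 lie at 0.25 and 0.32.

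Tau neighbours in an array were closer in sequence than other tau members, and their ratios still spread widely. Among the 19 pairs of listed tau genes in the same array the median protein identity was 65.9% and the median difference in log2 ratio was 1.08. For the 152 tau pairs that share no array these were 40.1% and 1.36. Most of the 19 pairs come from the array of GSTU1 to GSTU7. The 2 listed phi pairs in an array had a median identity of 86.9% and a median difference in log2 ratio of 0.2. For the 26 other phi pairs the medians were 41.3% and 1.96. The in-array pair GSTF6 and GSTF7 may share reads, so the likeness of their ratios is uncertain. GSTF2 and GSTF3, outside arrays, share 92.5% of residues and differed by 0.88 on the log2 scale, with 1 wild-type read for GSTF3. GSTU3 and GSTU4 share 75.9% of residues, with log2 ratios of 4.48 and 2.18. GSTU1 and GSTU2 share 81.7%, with 1.85 and 1.1. Pairs share genes and both libraries, so these figures are descriptions. The classes also differed in structure, since all 28 tau genes have 1 intron in the coding sequence, whereas 10 of 11 phi genes have 2.

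Promoter sequences were read from the RefSeq TAIR10.1 genome as the 250 bases before each annotated gene start. The core TGACG of the element bound by TGA factors, on either strand, was found in 11 of 27 listed members (40.7%) and in 19.9% of all listed protein-coding genes. It was held by 5 of the 14 members at least 2-fold higher and by 6 of the other 13. The W-box core TTGAC, bound by WRKY factors, was in 17 of 27 (63.0%, against 46.9%), the G-box CACGTG in 2 (7.41%, against 8.09%) and the GCC box GCCGCC in 2 (7.41%, against 1.87%). TTGAC and TGACG can overlap, as in TTGACG. The GCC box lay before GSTU10 and GSTU12. Among listed members, the windows of GSTU2, GSTU8, GSTU10, GSTF2 and GSTF12 overlap another annotated gene. So do those of GSTU7, GSTU24 and GSTF8, which hold TGACG. The windows are printed for 3 members that were higher in ago1-36 and hold TGACG (GSTU1, GSTU3 and GSTU11) and for 1 that was lower and also holds it (GSTU27), to show that the letters occur in members of either direction, each 5′ to 3′ on the strand of the gene, with TGACG or its reverse complement in capitals.
GSTU1: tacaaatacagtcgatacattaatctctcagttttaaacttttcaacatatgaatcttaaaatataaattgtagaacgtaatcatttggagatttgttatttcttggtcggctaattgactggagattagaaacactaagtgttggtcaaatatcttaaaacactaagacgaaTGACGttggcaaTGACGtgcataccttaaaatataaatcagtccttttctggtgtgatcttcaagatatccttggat
GSTU3: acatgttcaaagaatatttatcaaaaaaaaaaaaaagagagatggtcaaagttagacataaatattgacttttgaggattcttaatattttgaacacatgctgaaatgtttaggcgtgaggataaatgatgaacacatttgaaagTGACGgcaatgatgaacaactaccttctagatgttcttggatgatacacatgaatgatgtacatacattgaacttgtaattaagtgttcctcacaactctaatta
GSTU11: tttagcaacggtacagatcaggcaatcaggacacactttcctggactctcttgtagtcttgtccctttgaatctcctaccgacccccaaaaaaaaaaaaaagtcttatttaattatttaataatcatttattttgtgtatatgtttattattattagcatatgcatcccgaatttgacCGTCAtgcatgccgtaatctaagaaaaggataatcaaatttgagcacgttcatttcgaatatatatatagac
GSTU27: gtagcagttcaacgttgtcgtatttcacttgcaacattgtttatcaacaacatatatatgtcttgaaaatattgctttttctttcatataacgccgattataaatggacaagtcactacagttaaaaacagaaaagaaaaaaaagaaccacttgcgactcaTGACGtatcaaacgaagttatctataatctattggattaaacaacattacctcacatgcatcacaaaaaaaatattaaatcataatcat
They come from chr2:12632539-12632788 (minus strand), chr2:12629641-12629890 (minus strand), chr1:26338819-26339068 (minus strand) and chr3:15660520-15660769 (plus strand). GSTU1 holds TGACG at -77 and -65 relative to the gene start, GSTU3 at -105, GSTU11 at -72 on the other strand, and GSTU27 at -89. A match of letters is a description and does not show that a factor binds there.

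Beside the tau and phi classes, further lists of related genes are set against the 19.6% of all kept genes that were at least 2-fold higher in ago1-36 and the 8.38% that were at least 2-fold lower. Of 7 listed genes of other transferase classes (with phi member GSTF5), 3 were at least 2-fold higher (42.9%) and none lower, with a median log2 ratio of 0.84. GSTF5, 1 of the 3, passed the filter through ago1-36 alone. At 1 RPKM in both libraries 2 of 6 were at least 2-fold higher, against 16.2% of all such genes. Their median was 0.75, against -0.08. GSTF5, close to GSTF6, had 2 and 32 reads (16.1-fold higher, 95% counting interval 4.11 to 139). The dehydroascorbate reductase DHAR1, which regenerates ascorbate with glutathione, had 91.5 and 299 RPKM (3.27-fold), and the lambda member GSTL2 was lowest at 18.8 and 15.8 RPKM. Glutathione synthesis and reduction had 0 of 4 genes past 2-fold (median 0.51), from GSH2, the glutathione synthetase, at 26.1 and 46.6 RPKM to the plastid glutathione reductase GR2 at 51.3 and 49.2 RPKM. Glutathione peroxidase-like enzymes passed 2-fold in 3 of 4 listed cases, all higher (75% against 19.6%, median 1.14). On the scale of RPKM plus 1 the highest ratio was that of GPX3 at 18.3 and 44.8 RPKM, and GPX1 had 40.6 and 35.5 RPKM.

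Genes that act on the conjugates went both ways. Of 7 listed transport and breakdown genes 3 were at least 2-fold higher (42.9%, against 19.6% of all kept genes) and none lower (median 0.93). The gamma-glutamyl transpeptidase GGT1 was 4.26-fold higher (12.7 and 53.9 RPKM, 95% counting interval 3.79 to 4.81). By contrast ABCC2, a vacuolar transporter of conjugates, was lower in ago1-36, at 23.4 RPKM against 40.3 RPKM in wild-type. GGP1, which cleaves glutathione conjugates in the cytosol, had 298 and 569 RPKM (1.91-fold). None of the 4 listed TGA factors and partners was past 2-fold (median 0.48), from TGA6 at 3.45 and 5.97 RPKM to TGA4 at 5.55 and 4.26 RPKM.

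Of 12 listed xenobiotic and oxylipin response genes, 5 were at least 2-fold higher in ago1-36 (41.7%, against 19.6% of all kept genes) and none lower (median 0.46). Among these 5, UGT73B4 and UGT73B5 had log2 ratios of 1.55 and 1.48. The annotated UGT73B4 locus lies within that of UGT73B5, so their reads may be shared and they may not be separate cases. OPR3, the reductase of jasmonate synthesis, was 7.65-fold higher (57.9 and 443 RPKM, 95% counting interval 7.22 to 8.11), whereas the cytochrome P450 gene CYP81D11 was lower there, at 15.8 RPKM against 26.6 RPKM in wild-type. Camalexin synthesis, which uses GSTF6, was at least 2-fold higher for 2 of its 3 genes (66.7%, median 1.99). CYP71A12 had 4.81 and 39.8 RPKM (8.27-fold, interval 6.79 to 10.2), PAD3 7.49 and 32.8 RPKM, and CYP71A13, a close copy of CYP71A12 with which it may share reads, 7.21 and 4.28 RPKM. In glucosinolate synthesis 2 of 11 listed genes passed 2-fold, both higher, a share of 18.2% that is close to the 19.6% of all kept genes (median 0.53). Among them was CYP79B2, an enzyme of the indole branch, at 21.5 and 70.0 RPKM, and the lowest ratio was that of UGT74C1 at 147 and 117 RPKM. Late anthocyanin genes, which share their pathway with GSTF12, were lower in all 3 kept cases, 2 of them at least 2-fold (66.7%, against 8.38% of all kept genes, median -1.05). LDOX had 5.18 and 1.35 RPKM and UGT75C1 14.2 and 11.7 RPKM.

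**Figure D5:**
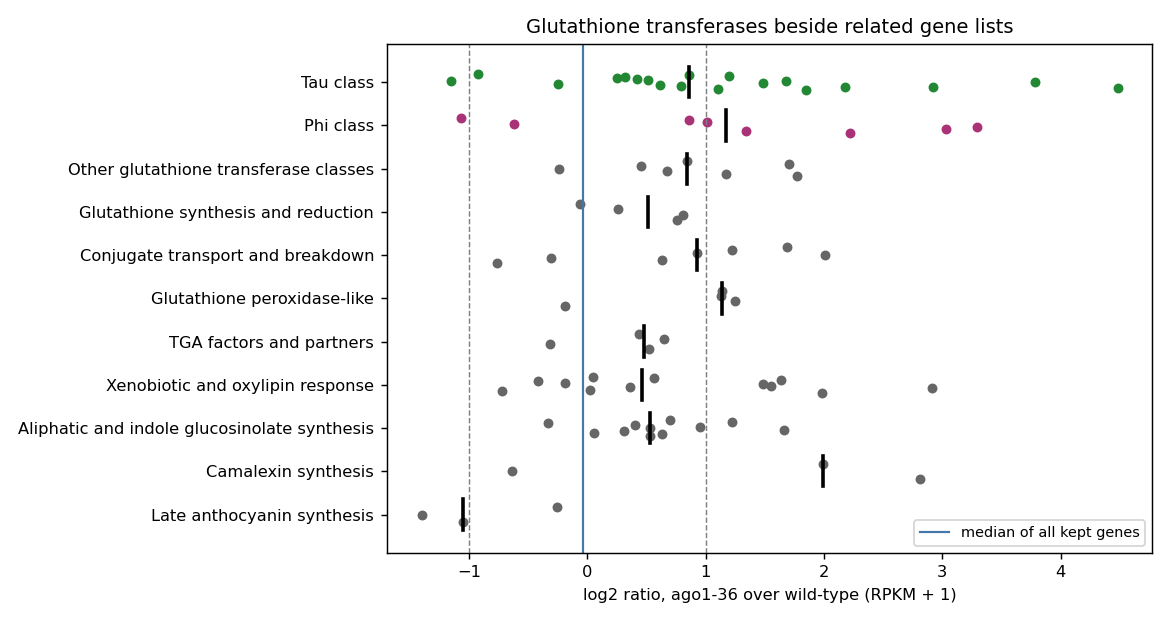
Log2 ratio of ago1-36 over wild-type (RPKM plus 1) of each kept gene in the tau and phi classes and 9 related lists, with a black bar at each list's median, dashed lines at 2-fold and a blue line at the median of all kept genes, -0.04 (1 library per genotype). The tau and phi medians lie at 0.86 and 1.18, and the late anthocyanin genes lie lowest at a median of -1.05.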

How the data were processed

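Per the labels' protocols, RNA was isolated with TRIzol and SMART libraries were built from it. The submitters' processing notes name TopHat2 2.0.11 and the genome build TAIR10. How reads were counted, over which annotation, whether by strand and with what rule for multiple matches is not given in the sources used here. Per the file headers, the authors' deposited table holds RPKM for each library, GFOLD scores, and log2 fold changes between genotypes (here read as ago1-36 over wild-type, the sign the RPKM columns bear out). Of 11957 lines that name a gene, 291 repeats were dropped, and 2 fragment lines were not used. No listed gene has a GFOLD score of 0, and deposited log2 fold changes smaller than 0.1 in size occur for 88 genes, against 1074 genes from 0.3 to 0.4. Genes with near-equal levels are thus scarce among listed genes, and all shares, members' and background, describe listed genes only.

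Log2 ratios were computed with 1 RPKM added, for genes that reached 1 RPKM in either library, and counted at 2-fold. Folds of single genes are plain RPKM ratios. With 1 library per genotype no test between genotypes exists. Reads were recovered from RPKM and the deposited log2 fold change, taken as the log2 of reads plus 1 in ago1-36 over wild-type, minus 0.176622, with library totals in a ratio of 0.994. Among genes with 1 to 100 wild-type reads 99.4% came out whole within 0.1, and 39.1% from 100 to 300 reads. Read totals were set from annotated exon lengths, as the commonest value among 3160 genes (362 at it). The recovery of reads was tested on simulated data made with this same formula, so that test could not check whether the formula holds for the deposited values. Names, coordinates, coding sequences and promoters came from the RefSeq TAIR10.1 annotation, which matched 11556 of 11666 identifiers. The table holds no coordinates, so its build could not be compared directly. Identity was taken from global alignments (Biopython 1.88) of annotated coding sequences and their translations.

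Members and related lists were chosen with earlier results of these data known. All listed members may be named, with AGO1 and, of each related list, the kept genes of highest and lowest ratio and those past 4-fold. DHAR1, GGP1, PAD3, UGT73B4, UGT73B5, the tissue markers given by name and the overlapping genes TOC159 and PSY were named after their values were seen. Alternatives were pseudocounts of 0.1 and 0.5, no filter, filters of 5 RPKM and of 1 RPKM in both libraries (added after the data were seen), 2 rescalings, both deposited measures, and leaving out close copies or overlapping genes.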

Additional observations from a re-analysis of the deposited data

How the results depend on the processing

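All 27 listed members kept their direction under the 6 settings that changed the pseudocount, the scaling or the measure. A change of pseudocount cannot reverse a direction, and the deposited measures rest on the same 2 libraries. GFOLD scores of the authors' deposited table were smaller in size than its log2 fold changes for every listed member, so a score is not a plain fold. With the 2-fold mark of log2 ratios applied to the scores, no tau (0) or phi (0) member counted as lower, and the tau median was 0.47. On that measure 1391 of 11373 kept genes counted as higher and 857 as lower. Medians of related lists were also lower by GFOLD, at 0.44 for other transferase classes, 0.25 for glutathione synthesis and reduction, 0.68 for transport and breakdown, 0.64 for peroxidase-like enzymes, 0.11 for TGA factors, 0.13 for xenobiotic response, 0.24 for glucosinolate and 1.66 for camalexin synthesis. Taking log2 fold changes from the authors' deposited table, the phi median was 1.45 and 2 tau members were at least 2-fold lower. Pseudocounts of 0.1 and 0.5 gave phi medians of 1.63 and 1.48, and scaling to a sum of 1000000 gave 1.46. Without members of 90% or more identity the phi median was 0.12 and 1 phi member was at least 2-fold higher. Without members that overlap a listed gene 0 phi members were at least 2-fold lower, since GSTF12 overlaps PSY. A filter of 5 RPKM, or of 1 RPKM in both libraries, left 0 tau members at least 2-fold lower, since both remove GSTU14. The tau count higher was 6 to 9 and the phi count 4 or 5 under all settings other than the removal of close copies. Over all kept genes the share of higher genes among those past 2-fold was 70.0%, and 55.7% by the deposited log2 fold change. Depth limits GSTU3, GSTU11, GSTU12, GSTU14 and GSTF3, which had under 10 reads in a library. No paired analysis was possible because each genotype has 1 library.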

Other observations

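Listed genes that are not members but lie in or within 20 kb of the 9 arrays were compared with the arrays, with windows chosen after the data were seen. Of 55 kept neighbours, 15 (27.3%) were at least 2-fold higher in ago1-36, against 19.6% of all kept genes, and 3 were at least 2-fold lower, with a median log2 ratio of 0.04. Of the higher neighbours, GSTF5, AT1G10340, AT1G17147, AT1G69890 and AT1G78410 passed the filter through ago1-36 alone, so their direction was partly set by the filter. MTPB1 passed it through wild-type alone. Around GSTU11 and GSTU12, 4 of 6 kept neighbours passed 2-fold upwards in ago1-36 (median 1.84). AT1G69900 had 2.28 and 26.1 RPKM in wild-type and ago1-36, AT1G69890 0.647 and 8.93 RPKM, and the thioredoxin gene TH8 4.55 and 34.6 RPKM, while CLE26, which encodes a signalling peptide, had 23.2 and 4.8 RPKM. Around the array of GSTU1 to GSTU7, 1 of 11 kept neighbours was at least 2-fold higher and the median was -0.20. That gene was SAG13, a senescence-associated dehydrogenase, at 1.28 and 89.8 RPKM. The genes named here were chosen after their values were seen.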
